A study of Homo sapiens with 4 samples.

Results

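The genes of the germinal-centre programme, and the factors that end it, were measured in the human lymphoma lines Jeko-1 and Raji and in sublines of both that resist rituximab. The 9 genes were taken by name: BCL6, LMO2, MYBL1, S1PR2, GCSAM, SERPINA9 and ELL3, which mark germinal-centre B cells, and the exit factors PRDM1 and IRF4. Every probe set that the array annotation assigned to 1 of these symbols alone was used, which gave 20 probe sets for the 9 genes, out of 41091 single-symbol probe sets for 19775 genes. The Jeko-1 line comes from a mantle cell lymphoma and the Raji line from a Burkitt lymphoma, and Jeko-1/R and Raji/R are their sublines resistant to rituximab, an antibody against the B-cell surface protein CD20. Jeko-1/R and Raji/R cells had been treated with rituximab, and Jeko-1 and Raji cells had not. Its dose and duration, and whether a subline was a single clone, are not given in the sources used here. There was 1 array for each of Jeko-1/R, Jeko-1, Raji/R and Raji, so no group had a replicate and each lymphoma type was represented by 1 line.

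The germinal centre is the site in a lymphoid follicle where activated B cells divide and mutate their antibody genes. BCL6, a transcriptional repressor, holds B cells in that state and keeps plasma-cell genes silent. PRDM1, which encodes the repressor BLIMP1, and IRF4, an interferon regulatory factor, drive the exit to the plasma cell, and BCL6 and PRDM1 repress each other. Burkitt lymphoma is regarded as a tumour of germinal-centre B cells, whereas most mantle cell lymphomas are regarded as tumours of B cells that have not passed through the germinal centre.

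The promoters of the repressor and of the exit factors are shown because the values below set these 3 genes against each other. Sequences are from RefSeq, build GRCh38.p14, and cover the 250 bases before an annotated start, read 5′ to 3′ on the gene's strand. Windows were found for 7 of the 9 genes, 9 windows in all, since BCL6 and PRDM1 have 2 starts each. Capitals mark a match on either strand to TTCCNAGAA, the BCL6 motif. An element of IRF and PRDM1 type (GAAA, any 2 bases, GAAA) and one of PU.1 with IRF4 (GGAA, any 2 bases, GAAA) were searched as well, and these can overlap each other.
BCL6, chr3:187745469-187745718, minus strand: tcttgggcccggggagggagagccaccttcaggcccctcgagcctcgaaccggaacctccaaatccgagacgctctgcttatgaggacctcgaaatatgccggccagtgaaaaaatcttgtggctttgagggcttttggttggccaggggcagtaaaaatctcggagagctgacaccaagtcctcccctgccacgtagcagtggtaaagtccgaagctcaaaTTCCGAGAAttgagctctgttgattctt
PRDM1, chr6:106086086-106086335, plus strand: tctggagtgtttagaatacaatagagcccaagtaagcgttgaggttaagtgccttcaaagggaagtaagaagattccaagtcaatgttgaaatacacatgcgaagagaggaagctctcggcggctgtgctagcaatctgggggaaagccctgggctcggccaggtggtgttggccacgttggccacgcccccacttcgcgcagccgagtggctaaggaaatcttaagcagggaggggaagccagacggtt
IRF4, chr6:391502-391751, plus strand: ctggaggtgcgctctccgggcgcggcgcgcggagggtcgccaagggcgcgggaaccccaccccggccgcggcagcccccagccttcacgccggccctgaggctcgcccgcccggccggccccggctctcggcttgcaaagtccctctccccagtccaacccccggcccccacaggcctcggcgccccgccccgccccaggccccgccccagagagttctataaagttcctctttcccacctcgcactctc

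The BCL6 window holds 1 match to TTCCNAGAA, which begins 28 bases before the start. Among all 35116 promoter windows of this length, 1.63% hold that pattern on either strand, 3.02% hold the IRF and PRDM1 element and 2.41% the PU.1 and IRF4 element. None of these patterns was found in the other BCL6 window, in either PRDM1 window, or in the windows of IRF4, S1PR2, GCSAM, SERPINA9 and ELL3. The IRF4 window is the richest of the member windows in G and C, at 76.0%, against 54.4% in the BCL6 window shown. The shorter patterns CANNTG, the E-box that the LMO2 complex binds, and AACNG, of MYB type, were in 6 and 6 of the 9 windows, and in 61.8% and 70.6% of all windows. A match is a description of letters and not of binding.

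Values are MAS5 signals, which the authors deposited on a log2 scale, and each probe set is compared only with itself across arrays. A gene is represented by its brightest probe set, and signals under the pooled median of all values, a signal of 77.5, were raised to that floor before ratios were taken. Where 1 of the signals was below the floor the fold is a bound, written "at least". The arrays had median log2 signals of 6.12 in Jeko-1/R, 6.11 in Jeko-1, 6.59 in Raji/R and 6.18 in Raji, so that dim probe sets sat higher on the Raji/R array than on the others. With no replicate arrays, the spread of log2 ratios between probe sets of 1 gene was taken as a rough guide. Its SD was 0.25 for Jeko-1/R over Jeko-1 and 0.49 for Raji/R over Raji. Between the parental lines it was 0.85, and between the resistant lines 0.96. Probe sets of a gene share the same arrays, so this spread leaves out variation between arrays and between cultures. A ratio past it is therefore not shown to exceed error. Of 7 measured B-cell markers, 7 reached the floor on every array, with summed signals of 42526, 42655, 53039 and 53691 in Jeko-1/R, Jeko-1, Raji/R and Raji. Of 8 T-cell markers, 1 reached the floor in Jeko-1/R, 0 in Jeko-1, 4 in Raji/R and 1 in Raji, with summed signals of 348, 203, 610 and 397, and of 5 myeloid markers 1, 0, 2 and 1 did, with sums of 164, 173, 510 and 268. Of 5 plasma-cell markers 5 reached the floor on every array, with sums of 17941, 14698, 12255 and 11697. These 5 did not share 1 direction between the lines. TNFRSF17 and MZB1 were higher in the Jeko-1 lines on resistant and on parental arrays, whereas JCHAIN, SDC1 and DERL3 were lower. JCHAIN gave 1182 and 1248 in Jeko-1/R and Jeko-1, against 6081 and 6804 in Raji/R and Raji. In Raji/R the T-cell markers at or above the floor were CD3D (180), CD5 (121), CD7 (113) and CD3G (77.6), and the myeloid ones CSF1R (241) and CD163 (87.3). CD3E and CD14 lay below the floor on all 4 arrays. Their part in the results was not tested.

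The main contrast in these genes lay between the lines. The 7 germinal-centre genes were lower in the Jeko-1 lines, and the exit factors IRF4 and PRDM1 were higher there by their brightest probe sets. Cell line was tested with limma in a fit of all 4 arrays with cell line and resistance as terms, with two-sided p-values adjusted by the Benjamini-Hochberg method over 15575 genes. A parent and its subline are 2 arrays of 1 line, so the spread in this test does not measure differences between cultures. It joins how far a gene's line difference varied between resistant and parental arrays with a variance that limma shares over all genes. The shared part had 5.89 degrees of freedom (SD 0.263) against 1 for the gene itself, so it weighs more in each SE and p-value. Of the 9 genes, 9 passed at an adjusted p of 0.05, 7 lower and 2 higher in the Jeko-1 lines. This has to be read against 53.4% of all genes, since 8319 of 15575 passed, 30.1% lower and 23.3% higher. By size, 5 of the 9 genes were at least 8-fold apart the same way on both the resistant and the parental arrays, against 5.84% of all genes. BCL6, LMO2, S1PR2 and SERPINA9 were lower (1.71% of all genes) and IRF4 was higher (4.13%) in the Jeko-1 lines. That count rests on the brightest probe sets. The mean of probe sets takes in floored values, so a probe set below the floor on every array adds no difference, as in S1PR2 and IRF4. With that mean BCL6 (-2.89), LMO2 (-2.55), S1PR2 (-2.62) and IRF4 (1.80) had smaller line differences on the log2 scale, still called. They were no longer 8-fold apart on both pairs, while SERPINA9 was. Under a higher floor, the 75th percentile of all values, LMO2 (-2.82) and SERPINA9 (-2.26) were no longer so. On the resistant arrays 7 of 9 members were 2-fold apart, against 53.4% of genes (31.2% lower, 22.2% higher), and on the parental arrays 9 of 9, against 48.9% (26.4% lower, 22.4% higher). The 7 genes that were 2-fold apart on both pairs were all but MYBL1 and PRDM1, where 19.2% of genes were lower and 17.5% higher, 36.7% in all. The median absolute log2 difference was 3.89 over the 9 genes and 0.85 over all 15575, and nothing particular to the list is read from this, because the members were chosen with earlier results of these data known.

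**Figure D1:**
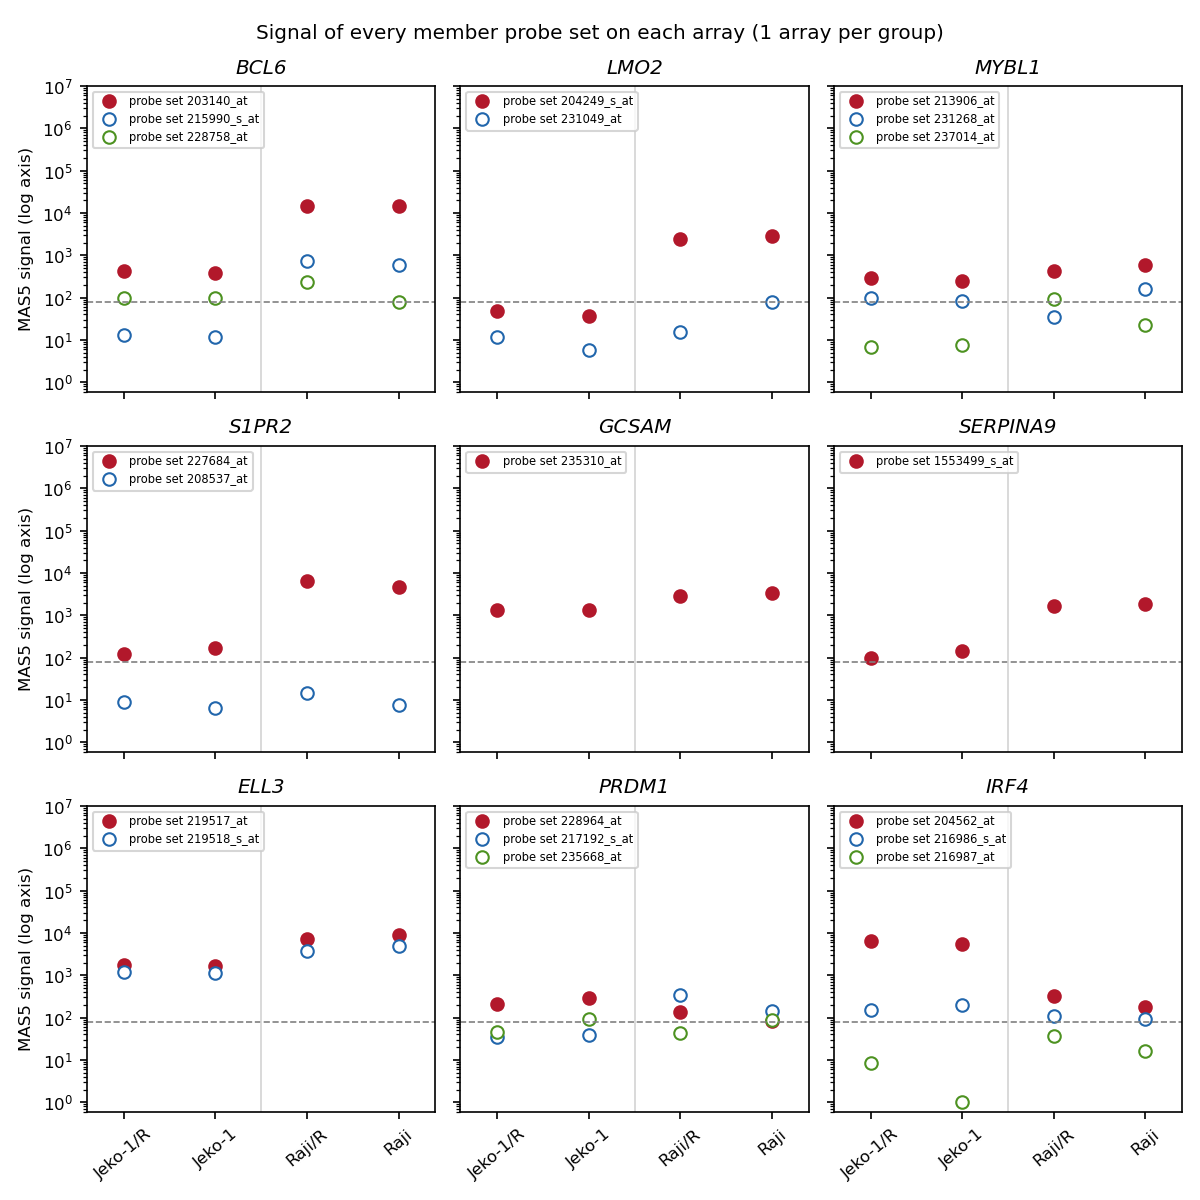
MAS5 signal (log axis) of all 20 probe sets on the 4 arrays, 1 panel per gene, with filled points for the brightest probe set, open points for the others and a dashed line at the floor of 77.5. The brightest BCL6 probe set stood at 432 and 392 in Jeko-1/R and Jeko-1 and at 14566 and 14398 in Raji/R and Raji, and the 3 PRDM1 probe sets did not share 1 order.

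BCL6, the repressor at the head of the programme, had signals of 432 in Jeko-1/R and 392 in Jeko-1, against 14566 in Raji/R and 14398 in Raji (probe set 203140_at). Both Raji arrays were far above both Jeko-1 arrays, and the arrays within a line nearly coincided. The gene was 33.8-fold lower in Jeko-1/R than in Raji/R and 36.7-fold lower in Jeko-1 than in Raji, a limma log2 difference of -5.14 ± 0.24 (SE, adjusted p = 2.9e-05). The difference exceeded that of 99.2% of the genes fitted. Without a floor its adjusted p was 0.041, as it was for LMO2, S1PR2, SERPINA9, ELL3 and IRF4. The dimmer probe set 215990_s_at gave 13.4 and 11.9 in Jeko-1/R and Jeko-1, both below the floor, and 741 and 589 in Raji/R and Raji, so it was at least 9.56-fold and 7.61-fold lower. The third BCL6 probe set, 228758_at, stood apart from both. It gave 98.1 in Jeko-1/R, 99.1 in Jeko-1, 235 in Raji/R and 77.3 in Raji, where the last value is just under the floor.

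LMO2 encodes an adaptor protein that joins transcription factors into complexes and is a histological marker of germinal-centre B cells. Its probe set 204249_s_at gave 48.6 in Jeko-1/R and 36.4 in Jeko-1, both below the floor, against 2388 in Raji/R and 2830 in Raji. Against Raji/R the signal in Jeko-1/R was lower by at least 30.8-fold, and against Raji that in Jeko-1 by at least 36.5-fold, with a limma log2 difference of -5.07 ± 0.25 (SE, adjusted p = 2.9e-05) on floored values. Since both Jeko-1 arrays stood at the floor, they add no spread to this test. The other LMO2 probe set, 231049_at, reached the floor only in Raji, at 80.6, and without x_at and s_at probe sets LMO2 had a log2 difference of -0.03 and an adjusted p of 0.94 (range over 8 alternatives 2.5e-09 to 0.94). By the array's naming, an s_at or x_at probe set can match more than 1 transcript.

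S1PR2 is the sphingosine-1-phosphate receptor that holds B cells within the germinal centre. It gave 125 in Jeko-1/R and 173 in Jeko-1, against 6449 in Raji/R and 4758 in Raji (probe set 227684_at). The Jeko-1 and Raji line arrays did not overlap, as in 72.0% of all genes. The difference between lines was -5.23 ± 0.30 on the log2 scale (SE, limma adjusted p = 3.9e-05), or 51.5-fold between the resistant and 27.5-fold between the parental lines. The gap was wider between the resistant lines, since the signal was lower in Jeko-1/R than in Jeko-1 and higher in Raji/R than in Raji, by log2 ratios of -0.47 and 0.44. The other S1PR2 probe set, 208537_at, lay below the floor on all 4 arrays.

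SERPINA9 is a serine protease inhibitor of germinal-centre B cells, also known as centerin. Its 1 probe set, 1553499_s_at, gave 97.8 in Jeko-1/R and 143 in Jeko-1, against 1701 in Raji/R and 1814 in Raji. The Jeko-1 arrays were close to the floor, and the line difference was -3.89 ± 0.26 on the log2 scale (SE, adjusted p = 5.8e-05). As an s_at probe set it has no second probe set of its own gene to be set beside.

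ELL3, an elongation factor of RNA polymerase II, was well above the floor on every array. It gave 1726 in Jeko-1/R and 1618 in Jeko-1, against 7320 in Raji/R and 9001 in Raji (219517_at), a line difference of -2.28 ± 0.25 (SE, adjusted p = 0.00037). The second probe set, 219518_s_at, gave 1171 and 1161 in Jeko-1/R and Jeko-1, against 3683 and 4919 in Raji/R and Raji. The order of the 4 arrays and the size of the gap were alike in both, with log2 ratios of -2.08 and -1.65 between the resistant lines and -2.48 and -2.08 between the parental lines.

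GCSAM, an adaptor that restrains the movement of germinal-centre lymphocytes, was well above the floor in the Jeko-1 lines too. Its signals were 1352 in Jeko-1/R and 1317 in Jeko-1, against 2868 in Raji/R and 3393 in Raji (235310_at). The line difference of -1.23 ± 0.25 (SE, adjusted p = 0.0052) exceeded that of 63.6% of genes. Without a floor its adjusted p was 0.065 (range over 8 alternatives 4.9e-05 to 0.065).

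MYBL1 encodes A-MYB, a transcription factor of dividing germinal-centre cells. It gave 286 in Jeko-1/R and 250 in Jeko-1, against 424 in Raji/R and 599 in Raji (213906_at). Its line difference of -0.91 ± 0.28 (SE, adjusted p = 0.027) was close to the middle of all genes, since 53.0% had a smaller one. The call was lost under 4 of 8 alternatives, over which the adjusted p ranged from 0.012 to 0.16. Of its other probe sets, 231268_at gave 99.6, 82.7, 34.5 and 157 in Jeko-1/R, Jeko-1, Raji/R and Raji, and 237014_at passed the floor only in Raji/R, at 92.1.

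IRF4, needed both early in B-cell activation and for the plasma cell, ran the other way. It gave 6385 in Jeko-1/R and 5515 in Jeko-1, against 332 in Raji/R and 175 in Raji (204562_at). The line difference was 4.62 ± 0.28 on the log2 scale (SE, adjusted p = 4.4e-05), or 19.2-fold between the resistant and 31.4-fold between the parental lines, and 98.6% of genes had a smaller one. Its probe set 216986_s_at gave 155 and 198 in Jeko-1/R and Jeko-1, against 112 and 94.4 in Raji/R and Raji, the same order between lines with a smaller gap. The remaining IRF4 probe set, 216987_at, lay below the floor on all 4 arrays.

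PRDM1 was dim everywhere, and its probe sets disagreed on the lines. The brightest, 228964_at, gave 210 in Jeko-1/R and 285 in Jeko-1, against 134 in Raji/R and 84.1 in Raji, a line difference of 1.20 ± 0.32 (SE, adjusted p = 0.017). Probe set 217192_s_at gave 34.4 and 39.6 in Jeko-1/R and Jeko-1, both below the floor, against 351 and 147 in Raji/R and Raji, which is at least 4.52-fold and 1.90-fold lower in the Jeko-1 lines. The third, 235668_at, gave 46.3 in Jeko-1/R, 94.6 in Jeko-1, 43.8 in Raji/R and 87.8 in Raji, with no gap between the lines. With the mean of its probe sets PRDM1 had a line difference of -0.10 and an adjusted p of 0.77 (range over 7 alternatives 0.018 to 0.77), so no direction is given for this gene.

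**Figure D2:**
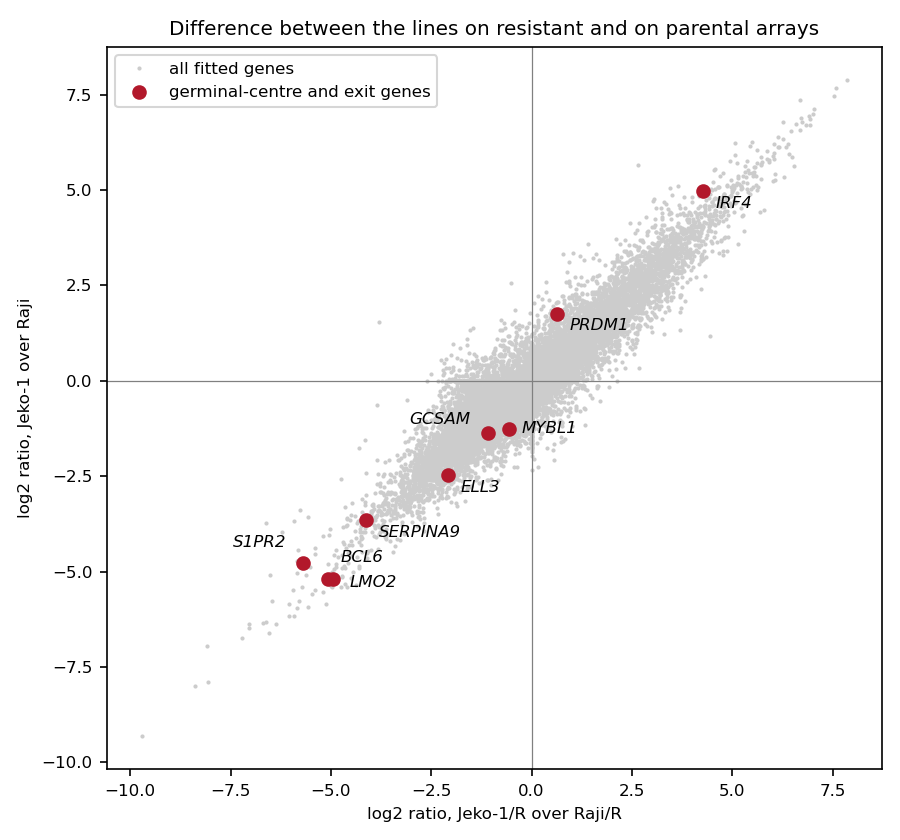
Log2 ratio of Jeko-1 over Raji (vertical axis) against that of Jeko-1/R over Raji/R (horizontal axis) for 15575 genes (grey) and the 9 members (red, by brightest probe set, floored). BCL6, LMO2, S1PR2, SERPINA9 and ELL3 lie at or below -2.08 on both axes, and IRF4 lies at 4.26 and 4.97.

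By the brightest probe set the 2 Jeko-1 arrays did not overlap with the 2 Raji arrays in 9 of 9 genes, as in 72.0% of all genes. Within the Raji lines the order of Raji/R and Raji varied from gene to gene, as did that of Jeko-1/R and Jeko-1, and these neighbours in the order differed by less than 2-fold in every member by its brightest probe set.

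The second comparison was resistant against parental cells in each line, for which 1 array per group allows no test. In Jeko-1/R against Jeko-1, 0 of the 8 members with an array at or above the floor were 2-fold apart, where 0.975% of 11588 genes were (0.380% higher, 0.595% lower). BCL6 (0.14), MYBL1 (0.19), GCSAM (0.04), ELL3 (0.09) and IRF4 (0.21) had positive log2 ratios within the SD of 0.25 between probe sets. SERPINA9 (-0.55), S1PR2 (-0.47) and PRDM1 (-0.44) were lower in Jeko-1/R, by 1.46-fold, 1.38-fold and 1.36-fold. These 3 genes had signals of at most 285 on both arrays, and LMO2 lay below the floor on both. Of all genes of the pair, 93.0% had a smaller ratio than SERPINA9 in either direction, 89.6% than S1PR2 and 88.4% than PRDM1.

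In Raji/R against Raji, 0 of 9 members were 2-fold apart by their brightest probe sets, where 9.64% of 14642 genes were (7.01% higher, 2.64% lower). Of those genes 72.7% were higher in Raji/R as deposited, 53.5% after quantile normalization and 49.6% after lowess adjustment. Among the germinal-centre genes BCL6 had a log2 ratio of 0.02 (0.65 with the mean of probe sets), SERPINA9 -0.09, GCSAM -0.24, LMO2 -0.25, ELL3 -0.30, MYBL1 -0.50 and S1PR2 0.44. The SD between probe sets was 0.49 in this pair, and MYBL1 alone was past it by a narrow margin. Of the exit factors, IRF4 stood at 0.92 (332 in Raji/R, 175 in Raji) and PRDM1 at 0.67 (134 in Raji/R, 84.1 in Raji). With the mean of probe sets they stood at 0.39 and 0.58, so no order among the members is read from this pair. Of all genes of the pair, 87.7% had a smaller ratio than IRF4 and 76.8% a smaller one than PRDM1. Both genes are dim in the Raji lines, in the range where the Raji/R array as a whole read higher. Whether that had a part in the ratios of IRF4 and PRDM1 was not tested. After a lowess adjustment of the ratio on mean signal IRF4 stood at 0.77 and PRDM1 at 0.27.

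Of the 20 probe sets, 18 had an array at or above the floor in the Raji pair and 13 in the Jeko-1 pair. Among these, 3 were 2-fold apart in Raji/R against Raji and 0 in Jeko-1/R against Jeko-1. The share over all probe sets was not computed. By brightest probe sets 9.64% of genes were 2-fold apart in the Raji pair and 0.975% in the Jeko-1 pair. PRDM1 217192_s_at gave 351 in Raji/R and 147 in Raji, a log2 ratio of 1.25 with both values measured. BCL6 228758_at was at least 3.04-fold higher in Raji/R, while the brightest BCL6 probe set gave 14566 in Raji/R and 14398 in Raji. MYBL1 231268_at was at least 2.03-fold lower in Raji/R, while 237014_at passed the floor only there. Probe sets of the same gene thus gave different ratios in all 3 cases, at signals of at most 351 in the probe sets past 2-fold.

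**Figure D3:**
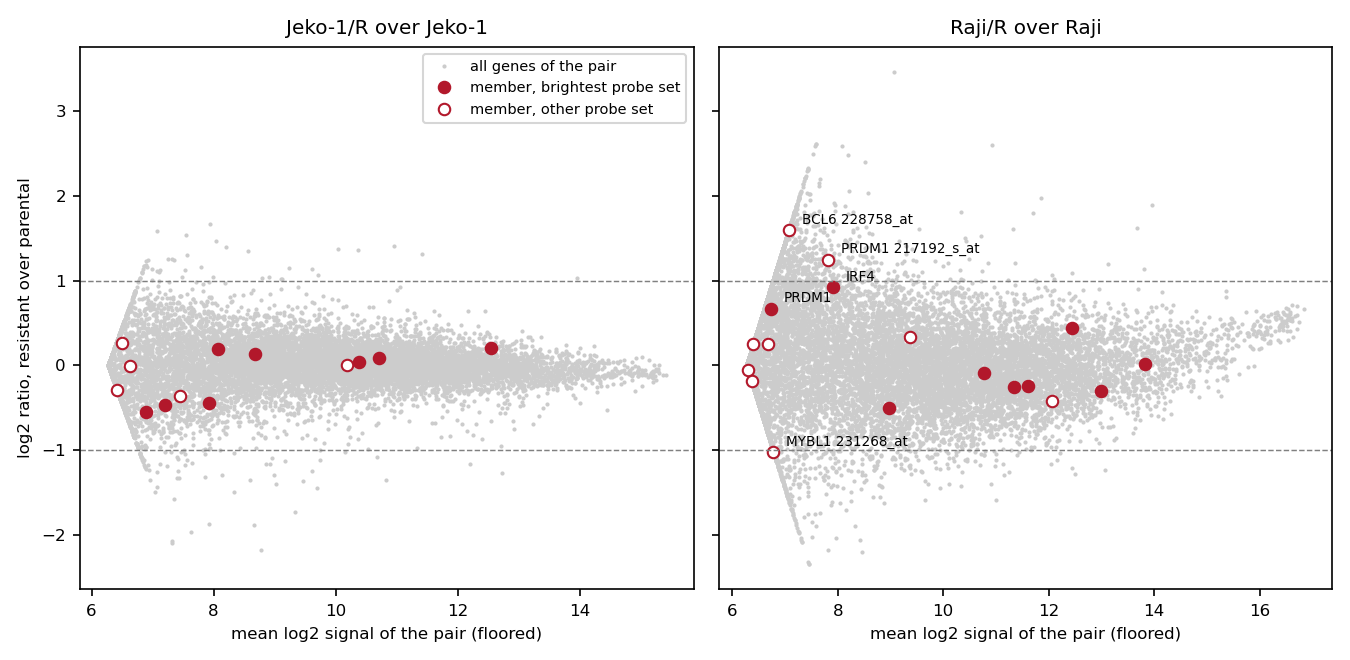
Log2 ratio of resistant over parental signal against the mean log2 signal of the pair, for Jeko-1/R over Jeko-1 (left) and Raji/R over Raji (right), with all genes in grey, the brightest probe set of each member as filled points, other member probe sets as open points, and dashed lines at 2-fold. Filled points lie between the dashed lines in both panels, and the open points past them on the right are BCL6 228758_at (1.60), PRDM1 217192_s_at (1.25) and MYBL1 231268_at (-1.02).

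Over both lines together, the resistance term of the limma fit called 0 of the 9 members, and none had an unadjusted p under 0.05. Over all 15575 genes limma called 0 (0.00%), and 324 (2.08%) had an unadjusted p under 0.05. IRF4 had the lowest unadjusted p of the members at 0.082, with a log2 difference of 0.57 ± 0.28 (SE, adjusted p = 0.97), and by this probe set was higher in the resistant line in 2 of 2 pairs. By 216986_s_at it had a log2 ratio of -0.36 in Jeko-1/R over Jeko-1 and 0.25 in Raji/R over Raji, and the mean of probe sets gave -0.05 in Jeko-1/R over Jeko-1. For BCL6 the difference was 0.08 ± 0.24 and for S1PR2 -0.01 ± 0.30 (SE, adjusted p = 0.98 and 1). With 2 pairs and a residual degree of freedom of 1, a missed threshold does not show that a gene was unaffected.

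Related genes were read from 9 lists, in which BACH2, SPIB, BATF, CD27, CD38, ELL2, GPR183, S1PR1 and TCF3 stand more than once. Their counts of calls are to be read against the 23.3% of all genes called higher and 30.1% called lower in the Jeko-1 lines. Genes that share the germinal-centre programme did not all follow the 7 members. Of 25 other listed germinal-centre genes 23 were fitted; limma called 13 lower and 5 higher in the Jeko-1 lines, and 5 were not called, with a median log2 difference of -0.87, against -0.29 over all genes. RGS13, a brake on G-protein signalling, gave 73.2 and 116 in Jeko-1/R and Jeko-1, against 4736 and 5159 in Raji/R and Raji (-5.71 ± 0.26 SE on floored values, the Jeko-1/R signal being below the floor, adjusted p = 2.7e-05). CD27, a TNF receptor of memory and germinal-centre B cells, gave 227 and 376, against 13054 and 10032 (-5.29 ± 0.32 SE, adjusted p = 4.5e-05). CCND3, the cyclin of dividing centroblasts, gave 652 and 735, against 9320 and 7766 (-3.62 ± 0.26 SE, adjusted p = 7.1e-05). BACH2, a repressor that delays plasma-cell differentiation, stood at the other end, with 5101 in Jeko-1/R and 4838 in Jeko-1, against 61.3 in Raji/R and 4.06 in Raji, both below the floor. It was at least 65.8-fold and 62.4-fold higher in the Jeko-1 lines by this probe set. Its second probe set gave 1277 and 1221 in Jeko-1/R and Jeko-1, against 26.4 in Raji/R, below the floor, and 249 in Raji, so it was higher by a log2 ratio of at least 4.04 between the resistant lines and by 2.30 between the parental lines. BACH2 was thus higher in the Jeko-1 lines, as IRF4 was, and BCL6 lower.

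Genes of the pathway around S1PR2 were divided. Of 10 listed genes limma called 3 higher and 3 lower in the Jeko-1 lines (median -0.29). GNA13, the G protein that S1PR2 acts through, was higher in the Jeko-1 lines (1.56 ± 0.25 SE, adjusted p = 0.0016), with 13015 and 12848 in Jeko-1/R and Jeko-1 and 4667 and 4102 in Raji/R and Raji. P2RY8, a second receptor coupled to it, was lower (-1.54 ± 0.25 SE, adjusted p = 0.0018). GPR183, a receptor that draws B cells out of the follicle centre and is repressed by BCL6, gave 3864 and 5404 in Jeko-1/R and Jeko-1, against 119 and 159 in Raji/R and Raji (5.06 ± 0.24 SE, adjusted p = 2.9e-05). ARHGEF1, the exchange factor between the G protein and RHOA, gave 105 in Raji/R and 477 in Raji by an x_at probe set, 4.52-fold lower, while its other probe set had a log2 ratio of 0.38.

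The known targets and partners of BCL6 were mixed. Of 16 fitted genes that BCL6 is known to repress, limma called 6 higher and 7 lower in the Jeko-1 lines, where BCL6 itself was lower (median 0.01). GPR183, the checkpoint kinase gene ATR (2.67 ± 0.25 SE, adjusted p = 0.00017) and the adhesion receptor CD44 (2.30 ± 0.26 SE, adjusted p = 0.00036) were higher. CD44 lay below the floor in Raji/R, at 36.3, so its difference is on floored values. The costimulatory ligand CD80 was lower, with 130 and 172 in Jeko-1/R and Jeko-1, against 2662 and 2276 in Raji/R and Raji (-4.04 ± 0.27 SE, adjusted p = 6e-05). Within a line, ID2, an inhibitor of E proteins that was singled out after its values were seen, was the 1 member of this list past 2-fold, with 3152 in Jeko-1/R and 7056 in Jeko-1 (log2 ratio -1.16, and -1.25 by its other probe set). Of 8 fitted BCL6 corepressor partners, limma called 0 higher and 3 lower in the Jeko-1 lines (median -0.52): the deacetylases HDAC7 (-1.98 ± 0.26 SE) and HDAC3 (-1.30 ± 0.25 SE) and the partner ZBTB17 (-1.42 ± 0.25 SE), with adjusted p-values of 0.00074, 0.004 and 0.0026. HDAC5 gave 476 in Raji/R and 126 in Raji (log2 ratio 1.92), while its other probe set stood at -0.45.

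The targets of PRDM1 and the plasma-cell genes held calls in both directions. Of 8 fitted genes that PRDM1 is known to repress, limma called 3 higher and 3 lower in the Jeko-1 lines (median 0.19). BACH2 and MYC, a driver of cell growth, were higher (MYC 1.81 ± 0.24 SE, adjusted p = 0.00083), and CD22, an inhibitory coreceptor of the B-cell receptor, and ID3, an inhibitor of E proteins, were lower (-3.89 ± 0.26 SE and -1.96 ± 0.26 SE, adjusted p = 6e-05 and 0.00074). Of 17 plasma-cell genes limma called 6 higher and 9 lower (median -0.74). TNFRSF17, the BCMA receptor of plasma cells, gave 10448 and 8257 in Jeko-1/R and Jeko-1, against 696 and 784 in Raji/R and Raji (3.65 ± 0.26 SE, adjusted p = 7.2e-05). ITM2C, a membrane protein gene, was above the floor in the Jeko-1 lines alone, at 2161 and 1979, and at least 27.9-fold and 25.5-fold higher there. CD27 and CD38, an ectoenzyme of both germinal-centre and plasma cells, were lower (CD38 -3.41 ± 0.26 SE, adjusted p = 8.7e-05). SDC1, the plasma-cell surface proteoglycan CD138, was dim throughout, with 80.8 and 99.6 in Jeko-1/R and Jeko-1 and 153 and 211 in Raji/R and Raji.

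Relatives and partners of the members are given last. Of 6 fitted partners and relatives of IRF4, limma called 1 higher and 3 lower in the Jeko-1 lines (median -0.70). BATF, which binds DNA with IRF4, gave 734 and 771 in Jeko-1/R and Jeko-1, against 3399 and 1981 in Raji/R and Raji (-1.79 ± 0.29 SE, adjusted p = 0.002), and SPIB, an ETS partner, was also lower (-1.70 ± 0.25 SE, adjusted p = 0.0012). IKZF3 was lower (-1.12 ± 0.27 SE) and BATF3 higher (0.84 ± 0.24 SE). Of 9 fitted members of the LMO2 complex, 2 were called higher, the E protein genes TCF4 (2.88 ± 0.26 SE, adjusted p = 0.00015) and TCF12 (1.12 ± 0.25 SE, adjusted p = 0.0087), and 2 lower (median -0.25). LDB1, the scaffold that LMO2 binds, gave 139 in Raji/R and 367 in Raji (log2 ratio -1.40), but 0.99 by its other probe set, and GATA2 gave 78.0 in Jeko-1/R and 166 in Jeko-1 (-1.09).

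Among 11 MYB and ELL relatives limma called 6 higher and 1 lower in the Jeko-1 lines (median 1.43). MYB, the founder of the family of MYBL1, gave 12346 in Jeko-1/R and 11527 in Jeko-1, against 1346 in Raji/R and 1733 in Raji (2.97 ± 0.26 SE, adjusted p = 0.00014). By its brightest probe set MYBL1 differed the other way, with a call that was lost under several alternatives. ELL2, the relative of ELL3 that plasma cells use in antibody processing, gave 230 and 212 in Jeko-1/R and Jeko-1 and lay below the floor in Raji/R and Raji, at 2.14 and 1.79. It was at least 2.96-fold and 2.74-fold higher in the Jeko-1 lines, where ELL3 was lower. LIN9, of the complex through which MYBL2 acts, and AFF4, the scaffold of the elongation complex of ELL2, were higher as well (2.03 ± 0.26 SE and 1.82 ± 0.28 SE). LIN9 lay below the floor in Raji, at 59.9.

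**Figure D4:**
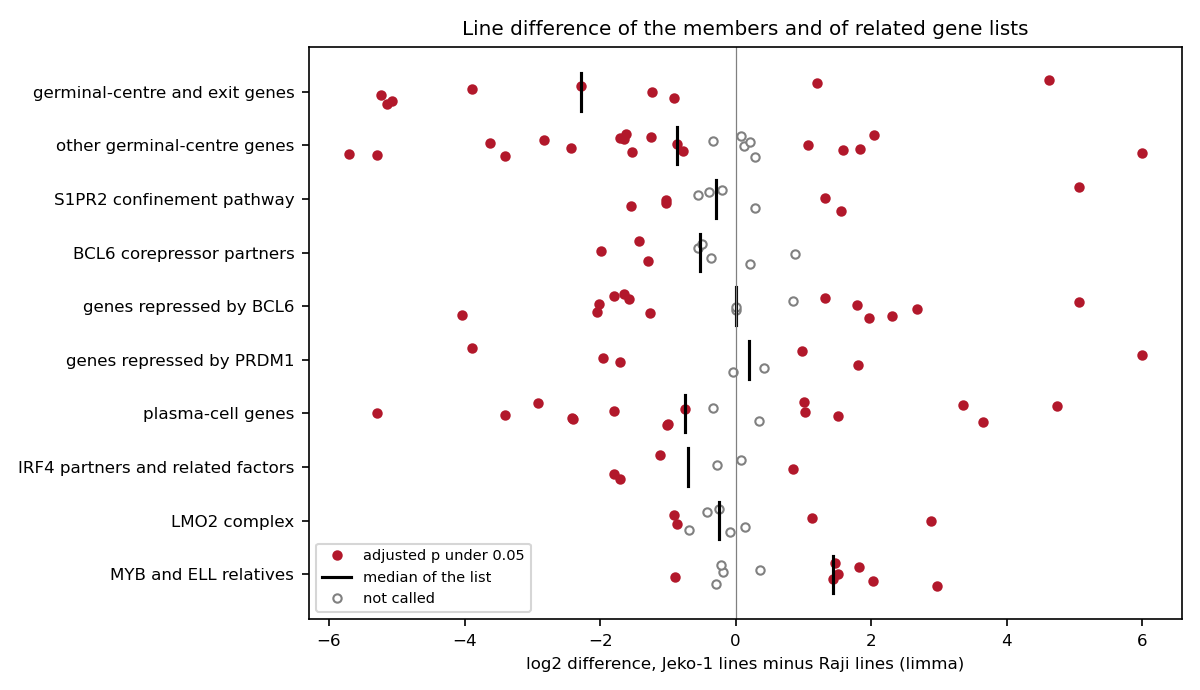
Limma log2 difference of Jeko-1 lines minus Raji lines for the 9 members and for each fitted gene of 9 related lists (1 point per gene, filled red where the adjusted p was under 0.05, open where not, black bar at the list median). The members had a median of -2.28, the other germinal-centre genes -0.87 and the MYB and ELL relatives 1.43.

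Within a line, 2 of the 94 distinct list genes measured were 2-fold apart in Jeko-1/R against Jeko-1 (2.13%, where 0.975% of all genes were), namely ID2 and GATA2, both lower. GATA2 was so by its brightest probe set alone. In Raji/R against Raji 6 of 93 were (6.45%, where 9.64% of all genes were): S1PR3 and HDAC5, which were higher, and EZH2, ARHGEF1, PAX5 and LDB1, which were lower. These directions are those of the brightest probe sets. The other probe set ran the opposite way in HDAC5 (-0.45), ARHGEF1 (0.38) and LDB1 (0.99). EZH2, the histone methyltransferase that germinal-centre B cells depend on, gave 1212 in Raji/R and 2519 in Raji (-1.05), and S1PR3, a receptor related to S1PR2, was at least 2.17-fold higher at 168. PAX5, the B-cell identity factor, gave 5628 in Raji/R and 13252 in Raji, a log2 ratio of -1.24.

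For each member the genes nearest in pattern were found by the Euclidean distance of centred log2 values over the 4 arrays, among genes at or above the floor on the same number of arrays. For BCL6 these were FNBP1 (distance 0.03), TSPAN33 (0.20) and CD82 (0.41), and for LMO2 they were HEY1 (0.09), CFAP251 (0.12) and BCL2A1 (0.16). The gene nearest to S1PR2 was CD27 (0.20), which is also in the germinal-centre list, followed by SMCO4 (0.36) and PTAFR (0.49). SERPINA9 lay nearest to ACKR3 (0.16), UNC119 and MOB3A (both 0.19). For ELL3 the nearest were NFKBIA (0.08), MFSD2A and PSAT1 (both 0.09), for GCSAM C14orf119 (0.03), KIF3B (0.05) and SCAMP4 (0.06), and for MYBL1 TRIM69 (0.05), IFRD1 (0.07) and SHKBP1 (0.08). IRF4 lay nearest to LEF1 (0.27), CHD1 (0.28) and NOL8 (0.31), and PRDM1 to TBXT, C1GALT1 and PIM1 (all 0.15). LEF1, a transcription factor of early lymphocytes, gave 3670 in Jeko-1/R and 2898 in Jeko-1, against 147 in Raji/R and 85.8 in Raji. Over 4 arrays of 2 lines such a distance mostly measures the size of the line difference.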

How the data were processed

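Biotinylated cRNA was made from total RNA, per the labels' protocols, and hybridised to 4 oligonucleotide arrays of 54613 probe sets. Per the submitters' processing notes the software was MAS5, of a version not named in the sources used here. The values deposited by the authors are taken as log2 signals: on that base the trimmed means of the arrays lay close together, at 497, 497, 494 and 494 in Jeko-1/R, Jeko-1, Raji/R and Raji. No detection calls entered the work. Gene symbols are those of the platform annotation, of which an update through RefSeq (GRCh38.p14) changed 0.

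Values below the pooled median (log2 6.28) were raised to it, and each gene was read by its brightest probe set on average. The 15575 genes that reached this floor on any array were fitted with limma 3.58.1 (R 4.3.3). The fit was also run on simulated data with equal noise in every gene. That run checks the code alone and not the precision in these arrays. Other steps used Python 3.11.15, numpy 2.4.6, pandas 2.3.3 and statsmodels 0.14.6. Precision is limited by the number of arrays. Nothing describes separate cultures, so p-values measure only the spread between these arrays, drawn by limma towards a variance shared by all genes. The pairing of resistant with parental arrays comes from the cell lines.

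The members, the lists and the tests were chosen with earlier results of these data known. The text names the 9 members, up to 4 genes of each list that were past 2-fold in a pair or called between lines, largest first, and the 3 genes nearest in pattern; list genes past 2-fold within a line, and SDC1, were added after their values were seen. Of the listed genes, those without a probe set of their own are not analysed here.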

Additional observations from a re-analysis of the deposited data

Results flagged for a closer look

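Some probe sets differed in opposite directions in the sublines of the 2 lines, with log2 ratios at least 1 apart. With 1 array per group these differences were not tested. PRDM1 228964_at was lower in Jeko-1/R than in Jeko-1 and higher in Raji/R than in Raji, and the Raji/R ratio exceeded the Jeko-1/R ratio by 1.11 on the log2 scale. MYBL1 231268_at was higher in Jeko-1/R and lower in Raji/R, a difference of -1.29 between the ratios, with the Raji/R value below the floor. BCL6 228758_at was higher in Raji/R against Raji, where the Raji value lay just under the floor, and nearly level in Jeko-1/R (log2 ratio -0.01), so the ratios differed by 1.62.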

How the results depend on the processing

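The direction of the line difference held in BCL6, S1PR2, SERPINA9, ELL3, GCSAM, MYBL1 and IRF4 under every alternative that gave a value. In PRDM1 it reversed to -0.10 with the mean of probe sets. LMO2 kept its direction except without x_at and s_at probe sets. Its difference there, -0.03, came from a probe set that reached the floor only in Raji and gives no direction. Of the members' line differences under the alternatives, 62 kept their direction and call, and 7 lost the call: MYBL1 with the higher floor, without a floor, with a pseudocount of 64 and with the mean of probe sets, GCSAM and PRDM1 without a floor, and LMO2 without x_at and s_at probe sets. Without x_at and s_at probe sets SERPINA9 gave no value, and PRDM1 gave none with the higher floor. The sizes moved more than the calls: with the mean of probe sets the line difference was -2.89 in BCL6, -2.62 in S1PR2, -2.55 in LMO2 and 1.80 in IRF4. Probe sets were floored before this mean, so one below the floor on all 4 arrays adds a difference of 0. This held for S1PR2 208537_at and IRF4 216987_at, and LMO2 231049_at reached the floor only in Raji. The members called were 6 to 9. Over all genes, the line term called 4379 without a floor, against 8319. In that setting the adjusted p of BCL6, LMO2, S1PR2, SERPINA9, ELL3 and IRF4 rose to 0.041. Genes past 2-fold in Jeko-1/R against Jeko-1 numbered 26 with the floor at the 75th percentile, 432 without a floor and 47 with the mean of probe sets, against 113, and in Raji/R against Raji 139, 3373 and 718, against 1412. Between the resistant lines 4848 passed with the higher floor, against 7911. The cause of these shifts was not tested. With the mean of probe sets BCL6 had a log2 ratio of 0.65 and IRF4 of 0.39 in Raji/R against Raji. In Raji/R 2 members, IRF4 and PRDM1, passed at 1.5-fold, and 0 at 2-fold or 3-fold. Of all genes 9.64% passed at 2-fold, and their shares at 1.5-fold and 3-fold were not computed. The ratio of PRDM1, the lesser of these members, was larger than that of 76.8% of genes. Of the calls in Raji/R 72.7% were higher as deposited, 53.5% with quantile normalization and 49.6% with lowess adjustment. The resistance term called 0 genes with and without the cell line as a replicate block. Without the block the line difference falls into the residual, so that fit could hardly call a gene and adds no support.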

Other observations

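Of 6 stromal or epithelial markers 4 reached the floor in Jeko-1/R, 5 in Jeko-1, 5 in Raji/R and 5 in Raji, with summed signals of 1016, 1344, 2815 and 2498. The collagen gene COL1A1 stood at 37.7 in Jeko-1/R and 97.7 in Jeko-1, against 1465 in Raji/R and 1916 in Raji. The other collagen marker, COL1A2, lay below the floor in Jeko-1/R and Jeko-1, at 6.8 and 17.5, and gave 264 in Raji/R and 86.8 in Raji. The cytokeratin gene KRT18 gave 106 in Jeko-1/R and 116 in Jeko-1, against 381 in Raji/R and 34.7 in Raji. KRT8 gave 87.5 in Jeko-1/R and 99.9 in Jeko-1, against 217 in Raji/R and 185 in Raji. KRT18 was thus lower in Jeko-1/R than in Raji/R but higher in Jeko-1 than in Raji. EPCAM and PECAM1 were higher in the Jeko-1 lines on both pairs. EPCAM gave 184 in Jeko-1/R and 324 in Jeko-1, against 60.8 in Raji/R and 84.2 in Raji. PECAM1 gave 594 and 689 in Jeko-1/R and Jeko-1, against 426 and 192 in Raji/R and Raji. No explanation of these values was examined.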
